A study of Mus musculus with 19 samples.

Results

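The cyclin-dependent kinase inhibitor genes of the mouse and 3 genes of the p53 circuit were followed through sorted cells of the anterior prostate. They are Cdkn1a, Cdkn1b, Cdkn1c, Cdkn2a, Cdkn2b, Cdkn2c and Cdkn2d, with Trp53, Mdm2 and Ccng1. These 10 genes were taken by name from the 24343 gene symbols of the deposited tables, where 16 of 34535 transcripts carry their names. The study asked what changes in the prostate when stromal cells that express the Wnt co-receptor gene Lgr5 are destroyed. Basal, luminal and stromal cells were isolated by flow cytometry from Lgr5-DTR-eGFP mice given diphtheria toxin (DT) and from wild type mice, and their RNA was sequenced. The Lgr5-DTR groups held 4 stromal, 3 basal and 3 luminal libraries, and the wild type groups held 3 libraries of each population. In the Lgr5-DTR-eGFP mice a diphtheria toxin receptor fused to a green fluorescent protein is driven by the Lgr5 locus, so the toxin can act on any cell that uses this locus. Per the labels, C57BL/6 animals came from a commercial breeder and the knock-in mice from another laboratory, and whether wild type animals also received toxin is not given. Genotype, toxin and origin of the animals therefore cannot be told apart. Age, toxin dose and the number of animals per library are not given either, so the p-values here measure the spread between libraries.

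Cyclin-dependent kinases drive cells from G1 into S phase, and 2 protein families hold them back. The Cip/Kip proteins p21 (Cdkn1a), p27 (Cdkn1b) and p57 (Cdkn1c) bind complexes of cyclins with their kinases, whereas the INK4 proteins p16 (Cdkn2a), p15 (Cdkn2b), p18 (Cdkn2c) and p19 (Cdkn2d) bind Cdk4 and Cdk6. Cdkn2a also encodes Arf from a second start, and Arf inhibits Mdm2. The transcription factor p53 (Trp53) activates Cdkn1a, Mdm2 and Ccng1 after damage or stress. Mdm2 is the ubiquitin ligase that marks p53 for degradation and so closes a feedback loop. Ccng1 encodes cyclin G1, which is known to act on Mdm2 through a phosphatase.

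Cdkn1a, Mdm2 and Trp53 have transcripts whose sequence shows what the deposited rows separate. Cdkn1a (chr17:29090986-29100722) has a row for each of 2 starts. The 250 bases before each start are shown because the libraries gave signal to the row of one start and none to the other. They come from RefSeq promoters on GRCm38.p6, plus strand, at chr17:29093519-29093768 for the downstream start and chr17:29090729-29090978 for the upstream start. Capitals mark GC boxes (GGGCGG on either strand).
Cdkn1a downstream start (NM_007669): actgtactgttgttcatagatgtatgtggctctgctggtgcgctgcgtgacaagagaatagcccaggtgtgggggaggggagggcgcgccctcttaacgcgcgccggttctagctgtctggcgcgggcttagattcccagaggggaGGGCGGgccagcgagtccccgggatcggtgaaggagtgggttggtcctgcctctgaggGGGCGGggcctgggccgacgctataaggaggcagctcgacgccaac
Cdkn1a upstream start (NM_001111099): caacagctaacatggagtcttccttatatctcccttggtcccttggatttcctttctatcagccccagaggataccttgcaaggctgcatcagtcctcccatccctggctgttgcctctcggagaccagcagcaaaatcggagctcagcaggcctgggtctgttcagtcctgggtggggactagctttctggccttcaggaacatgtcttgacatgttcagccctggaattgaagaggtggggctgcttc

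The downstream window holds 2 GC boxes and 19 CpG dinucleotides, and the upstream window holds 0 GC boxes and 2 CpG dinucleotides. Of the 32851 promoters of the same table, 32.7% hold at least 1 GC box in such a window, and the median number of CpG dinucleotides is 6. Neither window holds TATAAA on either strand, which 12.4% of all promoters do. Row NM_001111099 is listed at 0 in all 19 libraries, so the whole listed Cdkn1a level of every library is on row NM_007669. The 2 rows overlap, and reads of overlapping transcripts were divided by estimation. A listed 0 therefore does not show that the upstream start is unused. Whether the GC boxes or CpG dinucleotides bear on this split was not tested.

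Mdm2 (chr10:117688875-117710758, minus strand) has rows for transcripts of 3099 and 3014 bases. Their difference of 85 bases is the length of exon 3 of the 12 exons of the GENCODE transcript matched to the longer one, and no other exon of that transcript has this length. The table gives no exons, so this match rests on length. The coding part of exon 3 on GRCm38, chr10:117709700-117709780 on the minus strand, is shown because the shorter row carries the change described below; capitals mark the start codon.
Mdm2 exon 3, coding part: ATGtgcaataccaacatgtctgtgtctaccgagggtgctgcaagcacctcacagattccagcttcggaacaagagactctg

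Trp53 (chr11:69580359-69591873, plus strand) has rows for transcripts of 1868 and 1772 bases. The longer one, NM_001127233, has 96 further bases that bring an earlier stop codon, so it encodes 381 codons, against 390 in NM_011640. The coding part of the added stretch, chr11:69591254-69591308, is shown because it replaces the end of the protein; capitals mark the stop codon.
Trp53 added stretch, coding part: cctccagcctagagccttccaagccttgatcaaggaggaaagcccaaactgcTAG

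Library depth, counted as coverage times length summed over transcripts, ran between 5.26 and 9.38 gigabases, and 9209 to 10819 genes reached 1 FPKM (fragments scaled to transcript length and to the mapped fragments of the library). All 304 member values carried an OK status. The sorted populations carried their markers: the summed FPKM of 10 basal markers such as Krt5 and Krt14 was 6015 to 9136 in basal libraries and at most 54.9 in stromal ones, and 11 fibroblast markers summed to 3373 to 6547 in stromal libraries. The sums of 8 endothelial markers and of the 7 of 8 lymphocyte markers present in the deposited data did not exceed 29.7 and 8.87 FPKM in any library. Basal libraries also held luminal keratins, with Krt8 at 1125 to 1674 FPKM. In luminal libraries the 10 basal markers summed to 149 to 411 FPKM, with 9 of 10 above 1 FPKM on average in each genotype. In stromal libraries 11 luminal markers summed to 104 to 640 FPKM. Lgr5 itself was at 0.501 to 1.32 FPKM in Lgr5-DTR stromal libraries, against 25.8 to 77.6 FPKM in wild type stromal libraries. Lgr5 was also lower without overlap in Lgr5-DTR luminal libraries, at 0.554 to 0.671 FPKM, against 1.54 to 1.99 FPKM in wild type luminal libraries, and overlapped between genotypes in basal cells. Tables of 7 libraries carry low-data status entries and those of 12 do not; within basal and luminal cells both kinds occur in both genotypes. Each test below is a limma fit on log2(FPKM + 1), with p-values adjusted by Benjamini-Hochberg over all genes tested and calls at 0.05.

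Among the Cip/Kip genes Cdkn1a stood far above the others, Cdkn1c was graded over the populations and Cdkn1b was low in epithelium. Cdkn1a had 567, 250, 440 and 561 FPKM in Lgr5-DTR stromal libraries, against 556, 411 and 507 FPKM in wild type stromal libraries. Basal libraries had 524, 554 and 364 FPKM in Lgr5-DTR mice, against 350, 398 and 415 FPKM in wild type mice. Luminal libraries had 219, 221 and 214 FPKM in Lgr5-DTR mice, against 198, 143 and 147 FPKM in wild type mice. All luminal libraries lay below all stromal and basal ones, and the 4 stromal and basal groups overlapped each other in order of their means. In wild type cells Cdkn1a was higher in stromal than in luminal cells by 1.59 ± 0.18 (SE; limma adjusted p = 5.34e-06) and higher in basal than in luminal cells by 1.26 ± 0.18 (limma adjusted p = 5.53e-05). Its stromal minus basal difference of 0.33 was not called (limma adjusted p = 0.129).

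Cdkn1c (chr7:143458339-143461050), an imprinted gene, had 35.2, 26.2, 41.7 and 44.9 FPKM in Lgr5-DTR stromal libraries, against 32.5, 31.4 and 27.8 FPKM in wild type stromal libraries. Its basal values were 16.6, 14.4 and 10.6 FPKM in Lgr5-DTR mice, against 5.59, 8.21 and 7.80 FPKM in wild type mice. Luminal libraries had 6.33, 2.53 and 4.80 FPKM in Lgr5-DTR mice, against 1.91, 1.27 and 2.58 FPKM in wild type mice. Stromal libraries were the highest and did not overlap any epithelial library. The wild type differences were 1.96 ± 0.22 for stromal minus basal (limma adjusted p = 7.25e-06), 3.46 ± 0.22 for stromal minus luminal (limma adjusted p = 2.86e-08) and 1.50 ± 0.22 for basal minus luminal cells (limma adjusted p = 6.80e-05). GENCODE places a gene on the opposite strand that overlaps Cdkn1c and another that overlaps Cdkn1a. Strand-specific counting is not stated, so reads of either partner could not be told apart.

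Cdkn1b (chr6:134920401-134925525) averaged 7.45 ± 2.51 FPKM in Lgr5-DTR stromal libraries (SD, n = 4) and 8.54 ± 2.10 FPKM in wild type stromal libraries (SD, n = 3). Its 12 epithelial values lay between 0.961 and 2.72 FPKM. Wild type stromal cells exceeded basal cells by 1.78 ± 0.23 (limma adjusted p = 2.83e-05) and luminal cells by 1.58 ± 0.23 (limma adjusted p = 5.47e-05). The basal minus luminal difference of -0.20 was not called (limma adjusted p = 0.463).

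The INK4 genes were low, and Cdkn2c and Cdkn2d were highest in stromal cells. Cdkn2d (chr9:21288464-21291209) had 7.99, 4.74, 8.44 and 13.1 FPKM in Lgr5-DTR stromal libraries, against 14.3, 7.62 and 20.8 FPKM in wild type stromal libraries. Cdkn2c (chr4:109660876-109666756) had 6.43, 4.62, 4.93 and 8.65 FPKM in Lgr5-DTR stromal libraries, against 10.1, 5.46 and 10.1 FPKM in wild type stromal libraries. For both genes the genotypes overlapped in stromal cells. In basal cells Cdkn2c did not exceed 0.712 FPKM in any library of either genotype and was listed at 0 in 1 Lgr5-DTR library, so it was not tested there. In luminal cells it had 3.62, 2.44 and 4.34 FPKM in Lgr5-DTR libraries, against 0.784, 2.78 and 1.08 FPKM in wild type libraries, and the genotypes overlapped.

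In wild type cells Cdkn2c exceeded its basal level in stromal cells by 2.65 ± 0.30 (limma adjusted p = 9.15e-06) and its luminal level by 1.94 ± 0.30 (limma adjusted p = 9.14e-05). Its wild type basal values were 0.318 to 0.712 FPKM. Cdkn2c met the filter of this fit only through its stromal libraries, the group in which it is then called higher. These 2 p-values are therefore not independent of the filter. Cdkn2d was higher in stromal than in basal cells by 2.19 ± 0.40 (limma adjusted p = 0.000528) and than in luminal cells by 1.70 ± 0.40 (limma adjusted p = 0.00234). Cdkn2b (chr4:89306289-89311032), an inhibitor induced by TGF-beta, ran between 0.946 and 6.66 FPKM over all 19 libraries. It was higher in stromal than in basal cells by 1.33 ± 0.33 (limma adjusted p = 0.00380), while its stromal minus luminal difference of 0.59 was not called (limma adjusted p = 0.125), except without wild type stromal replicate 3 or luminal replicate 1 (limma adjusted p = 0.0263 and 0.0385). The basal minus luminal differences of Cdkn2b and Cdkn2c, -0.74 and -0.71, were not called (limma adjusted p = 0.0654 and 0.0575). Wild type basal and luminal libraries share the numbers in their titles, and with these as a random block both were called (limma adjusted p = 0.0342 and 0.0292). Cdkn2b was also called with the replicate block (limma adjusted p = 0.0458) and without wild type luminal replicate 2 (-1.05; limma adjusted p = 0.0162) or stromal replicate 2 or 3 (limma adjusted p = 0.0475 and 0.0350). Cdkn2c was called with a pseudocount of 0.1 (-1.35; limma adjusted p = 0.0265) and without wild type luminal replicate 1 (-0.92; limma adjusted p = 0.0268) or stromal replicate 2 (limma adjusted p = 0.0326). Cdkn2a (chr4:89274473-89294619), its neighbour on the chromosome, did not exceed 0.423 FPKM anywhere. Its p16 row NM_001040654 was listed at 0 in all 19 libraries and its Arf row NM_009877 was above 0 in 6 stromal libraries and 1 luminal one. It passed the filter on low values in no comparison.

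Trp53 was, like Cdkn1a, lowest in luminal cells, whereas Ccng1 was highest there. Trp53 had 81.9, 70.0, 75.7 and 51.3 FPKM in Lgr5-DTR stromal libraries, against 58.6, 66.8 and 55.9 FPKM in wild type stromal libraries. Basal libraries had 60.7, 58.7 and 59.4 FPKM in Lgr5-DTR mice, against 61.0, 49.7 and 47.8 FPKM in wild type mice. Luminal libraries had 30.5, 34.4 and 31.7 FPKM in Lgr5-DTR mice, against 20.1, 17.0 and 10.7 FPKM in wild type mice. All 6 luminal libraries lay below every stromal and basal library. In wild type cells the stromal minus luminal difference was 1.90 ± 0.22 (limma adjusted p = 6.87e-06) and the basal minus luminal difference 1.70 ± 0.22 (limma adjusted p = 2.48e-05). The stromal minus basal difference of 0.20 was not called (limma adjusted p = 0.468).

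Ccng1 (chr11:40748552-40755286) had 5.57, 3.19, 5.79 and 4.29 FPKM in Lgr5-DTR stromal libraries, against 6.12, 4.24 and 5.70 FPKM in wild type stromal libraries. Basal libraries had 9.01, 5.45 and 2.96 FPKM in Lgr5-DTR mice, against 6.78, 6.20 and 8.44 FPKM in wild type mice. Luminal libraries had 21.4, 18.5 and 22.3 FPKM in Lgr5-DTR mice, against 27.1, 34.4 and 24.9 FPKM in wild type mice. Every luminal library exceeded every other library. Wild type stromal cells were below luminal cells by a difference of -2.23 ± 0.20 (limma adjusted p = 8.78e-07), and basal cells by -1.87 ± 0.20 (limma adjusted p = 6.47e-06).

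Mdm2 had 73.9, 42.7, 63.8 and 43.5 FPKM in Lgr5-DTR stromal libraries, against 55.4, 32.4 and 40.4 FPKM in wild type stromal libraries. Basal libraries had 56.8, 45.2 and 48.0 FPKM in Lgr5-DTR mice, against 24.0, 31.7 and 37.5 FPKM in wild type mice. Luminal libraries had 37.3, 32.2 and 38.5 FPKM in Lgr5-DTR mice, against 30.0, 30.8 and 28.4 FPKM in wild type mice. The groups next to each other in order of their means all overlapped. No wild type difference of Mdm2 between populations was called: stromal minus basal 0.44 (limma adjusted p = 0.107), stromal minus luminal 0.48 (limma adjusted p = 0.0711) and basal minus luminal 0.04 (limma adjusted p = 0.891). The stromal minus luminal difference was called after scaling by trimmed mean of M values (TMM; 0.72, limma adjusted p = 0.0111) and quantile normalization (0.67; limma adjusted p = 0.0199). Without wild type stromal replicate 2 both stromal differences were called (0.61 and 0.65; limma adjusted p = 0.0319 and 0.0202). With the highest transcript alone, the longer one, stromal minus basal was called at 0.80 (limma adjusted p = 0.00519) and basal minus luminal at -0.54 (limma adjusted p = 0.0373).

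**Figure D1:**
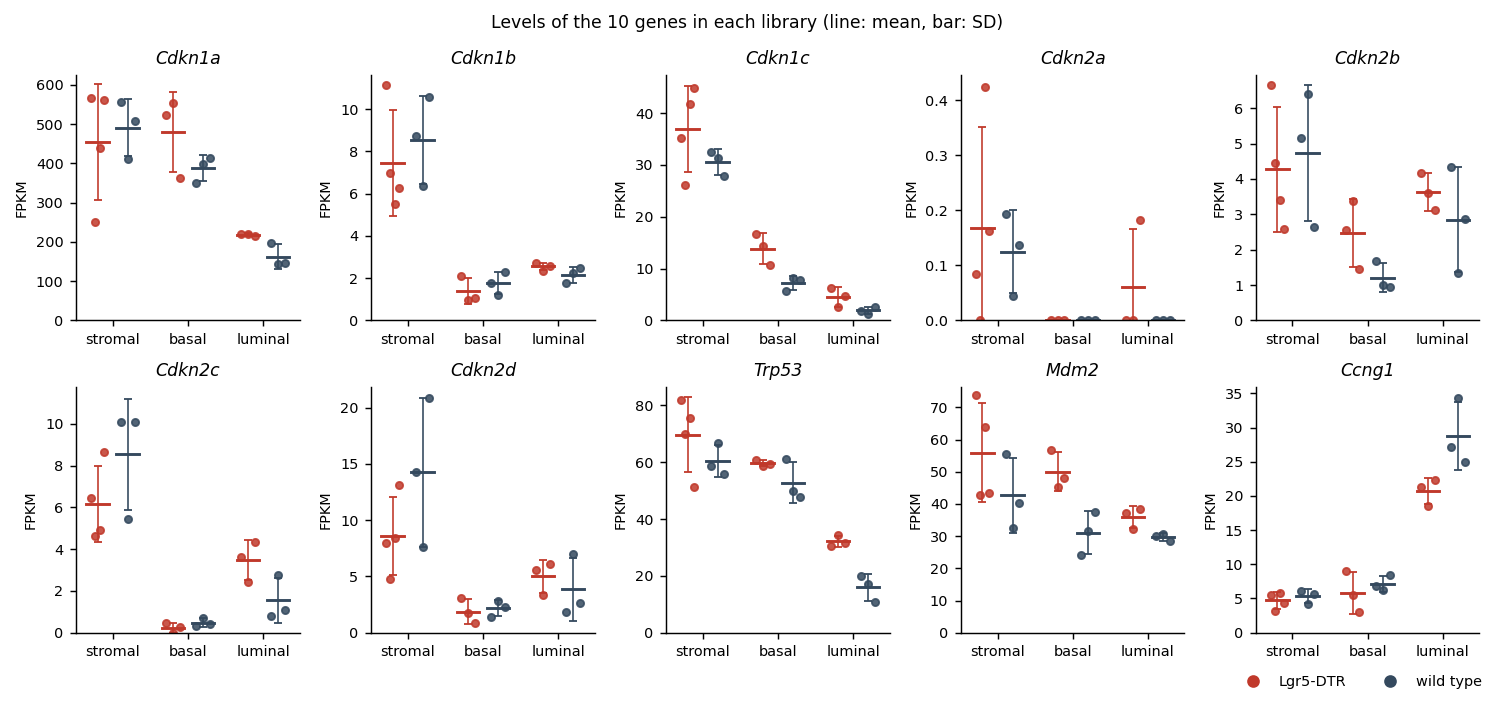
FPKM of the 10 genes in each library, by population on the x axis with Lgr5-DTR left of wild type; points are libraries, lines are means and bars are SD. Cdkn1a, Cdkn1c and Trp53 are lowest in luminal cells, Ccng1 is highest there, and Cdkn2a stays at or below 0.423 FPKM.

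Counted over the wild type populations, 5 of 9 tested members were higher in stromal than in basal cells and 0 were lower, where 57.0% of all genes tested were called. Cdkn2c, counted as higher in stromal cells here and against luminal cells, passed the filter only through its stromal libraries. Between stromal and luminal cells 6 of 9 were higher and 1, Ccng1, was lower, where 67.8% of all genes were called. Between basal and luminal cells 3 of 9 were higher and 1, again Ccng1, was lower, where 62.3% of all genes were called. With both directions joined, calls were about as common among all genes as among the members, or more common between basal and luminal cells. By direction, 3377 of 11566 genes were higher and 3216 lower for stromal minus basal cells. These counts were 3298 and 4540 for stromal minus luminal cells, and 2951 and 4256 for basal minus luminal cells. Whether the members differ from all genes in direction was not tested. The median difference of all genes was -0.24 for stromal minus luminal cells, -0.03 after TMM scaling and -0.14 after quantile normalization; for basal minus luminal cells it was -0.14, 0 and 0.03, and for stromal minus basal cells 0.00, 0.03 and -0.14. The 16 member calls between populations kept their sign and their call in all 288 refits. In RNA of sorted cells, fewer cells of a type that carries a transcript and less transcript per cell cannot be told apart.

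**Figure D2:**
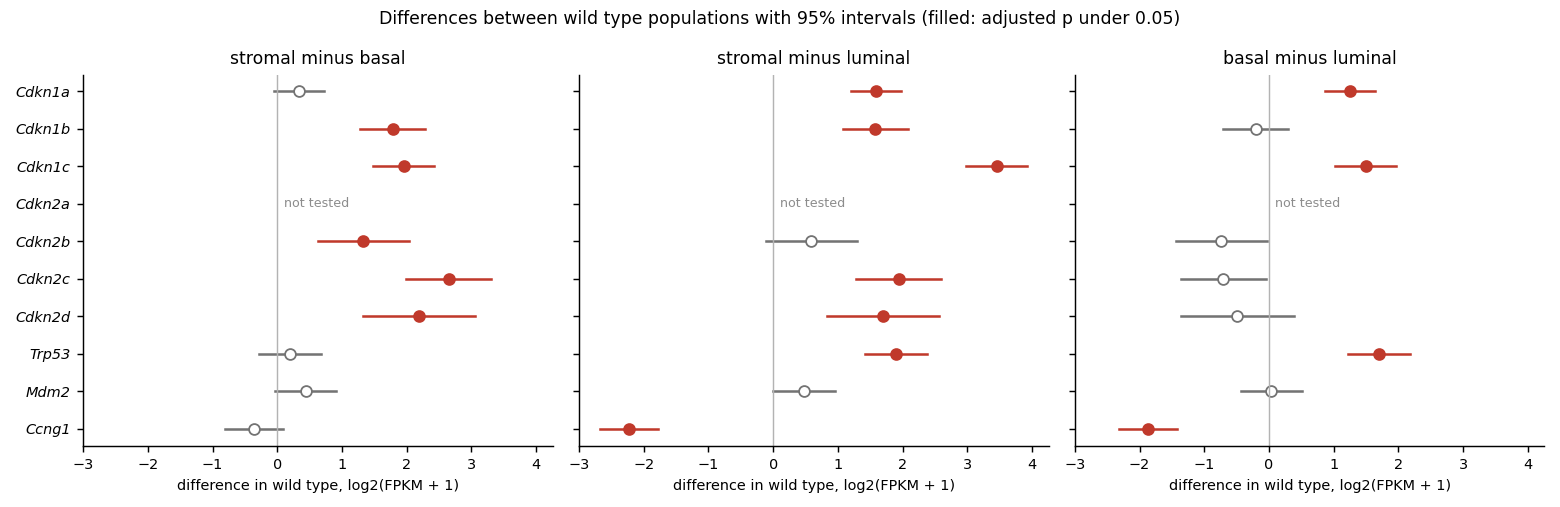
Differences of log2(FPKM + 1) between wild type populations for each gene, with 95% intervals from limma; filled red points have an adjusted p under 0.05. The 5 members called higher in stromal than in basal cells are kinase inhibitors, and Ccng1 is the member with a called negative difference, -2.23 against luminal cells from stromal and -1.87 from basal cells.

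In basal cells of Lgr5-DTR mice, p57 and Mdm2 transcripts were more abundant. Cdkn1c rose, at 16.6, 14.4 and 10.6 FPKM in Lgr5-DTR libraries against 5.59, 8.21 and 7.80 FPKM in wild type libraries, a log2 difference of 0.85 ± 0.21 (SE, n = 3 each; 95% interval 0.38 to 1.33; limma adjusted p = 0.0346). Mdm2 rose by 0.69 ± 0.19 (95% interval 0.26 to 1.11; limma adjusted p = 0.0494), with means of 50.0 ± 6.02 FPKM in Lgr5-DTR libraries and 31.1 ± 6.73 FPKM in wild type libraries (SD, n = 3 each). For both genes every Lgr5-DTR library was above every wild type library. An exact two-sided permutation test over the libraries gave p = 0.1 for each, the smallest that 3 against 3 libraries allow. These are 2 of 8 tested members, where 11.0% of all genes tested were called in this comparison. Groups of libraries did not overlap for 2 of 10 members, where they did not overlap for 31.1% of all genes tested.

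Both calls lie close to the threshold. The Cdkn1c call was lost without Lgr5-DTR basal replicate 2 (limma adjusted p = 0.139) and without wild type basal replicate 1, 2 or 3 (limma adjusted p = 0.0761, 0.0829 and 0.0907). It was also lost with table status as a covariate (limma adjusted p = 0.0795), with the replicate block (limma adjusted p = 0.145) and with no filter on low values (limma adjusted p = 0.0938). Fitted as transcript rows, neither Cdkn1c row passed. NM_009876 differed by 0.82 (limma adjusted p = 0.0555) and NM_001161624, with overlapping libraries, by 0.75 (limma adjusted p = 0.234). The Mdm2 call was lost without Lgr5-DTR basal replicate 2 or 3 (limma adjusted p = 0.124 and 0.110), without wild type basal replicate 1, 2 or 3 (limma adjusted p = 0.0861, 0.143 and 0.0633) and in each of 9 other alternatives. Among the libraries whose tables carry low-data entries, Cdkn1c averaged 13.6 FPKM in 2 Lgr5-DTR libraries and had 8.21 FPKM in 1 wild type library; among the rest it had 14.4 FPKM in 1 Lgr5-DTR library and averaged 6.70 FPKM in 2 wild type libraries. Mdm2 likewise averaged 52.4 FPKM in 2 Lgr5-DTR libraries and had 31.7 FPKM in 1 wild type library with such entries, and 45.2 FPKM in 1 Lgr5-DTR library and 30.7 FPKM on average in 2 wild type libraries without them.

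In basal cells the Mdm2 difference between genotypes sat on the shorter of its transcripts. That row, NM_001288586, had 32.2, 26.0 and 26.4 FPKM in Lgr5-DTR basal libraries, against 10.1, 13.4 and 13.2 FPKM in wild type basal libraries. The row NM_010786, which holds exon 3, had 24.6, 19.2 and 21.6 FPKM in Lgr5-DTR basal libraries, against 13.9, 18.2 and 24.3 FPKM in wild type basal libraries. The genotypes did not overlap for the shorter row and overlapped for the longer one. With transcripts as rows, a fit added after the data were seen, the shorter transcript rose by 1.14 ± 0.17 (limma adjusted p = 0.00931; 870 of 11222 transcripts called), and the longer one differed by 0.23 ± 0.21 (limma adjusted p = 0.548). The shorter transcript made up 56.4% ± 1.33 of Mdm2 FPKM in Lgr5-DTR basal libraries and 39.9% ± 4.08 in wild type basal libraries (SD, n = 3 each).

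Its share was lower elsewhere, at 16.6% ± 0.945 in Lgr5-DTR luminal libraries and 8.70% ± 7.53 in wild type luminal libraries, where 1 library listed it at 0. In stromal cells it was 23.9% ± 6.65 in Lgr5-DTR libraries (SD, n = 4) and 21.2% ± 10.4 in wild type libraries (SD, n = 3). The shorter row was also higher without overlap in Lgr5-DTR luminal libraries, at 5.97 ± 0.621 FPKM, against 2.64 ± 2.29 FPKM (SD, n = 3 each). Its luminal difference of 1.26 ± 0.60 was not called (limma adjusted p = 0.283). Its genotype difference was not shown to differ between basal and luminal cells (-0.11 ± 0.68; limma adjusted p = 0.945). Between wild type populations, the shorter row was higher in basal than in luminal cells by 2.18 ± 0.66 (limma adjusted p = 0.0200), and the longer row was lower in basal than in luminal cells, with a difference of -0.54 ± 0.20 (limma adjusted p = 0.0444). The summed gene hides these opposite differences. Cufflinks, named in the submitters' processing notes, divides reads among overlapping transcripts by estimation, so the split between these rows is less certain than their sum.

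**Figure D3:**
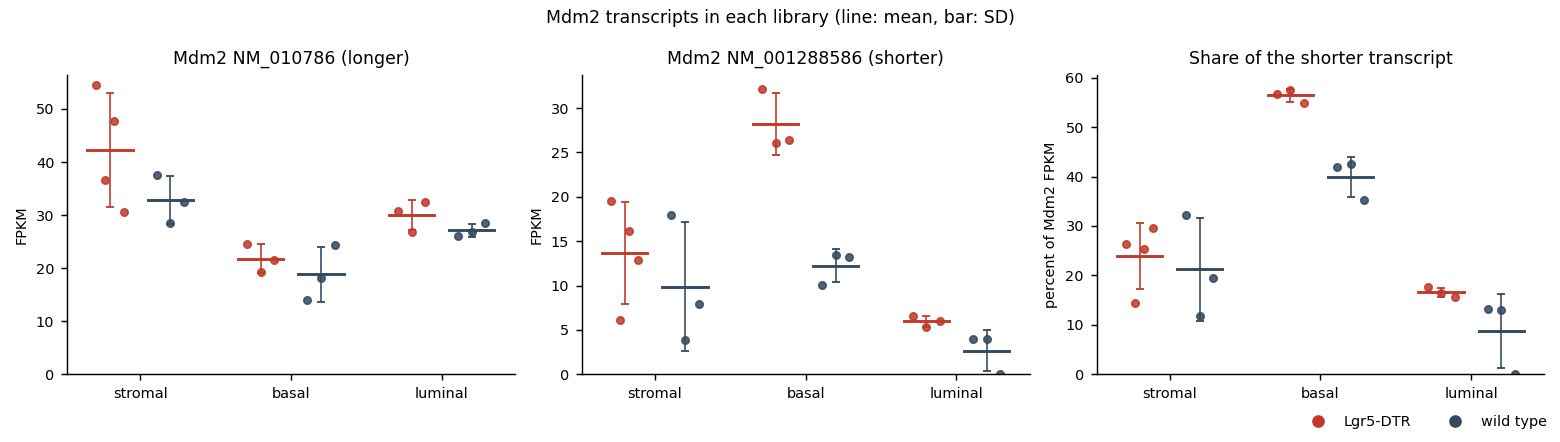
FPKM of the 2 Mdm2 transcripts and the share of the shorter one, in percent, in each library, with Lgr5-DTR left of wild type; points are libraries, lines are means and bars are SD. In basal cells the shorter transcript makes up 56.4% of Mdm2 in Lgr5-DTR libraries and 39.9% in wild type libraries.

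The remaining tested members did not pass in basal cells. Cdkn2b had an unadjusted p of 0.0380 and a log2 difference of 0.62 ± 0.26 (limma adjusted p = 0.153), and Cdkn1a differed by 0.29 ± 0.19 (limma adjusted p = 0.373). Trp53 differed by 0.18 with a 95% interval of -0.15 to 0.51 (limma adjusted p = 0.465). Other cell type markers moved in the same libraries. The 11 luminal markers summed to 6514 to 8771 FPKM in Lgr5-DTR basal libraries, against 4862 to 5854 FPKM in wild type ones, with 10 of 11 above 1 FPKM on average in each group. Limma called 4 of 10 tested luminal markers higher and 0 lower. Of these 10, 7 differences lay above 0 and 3 below, with a median of 0.35. The 10 basal markers summed to 6015 to 6504 FPKM, against 8134 to 9136 FPKM, but did not move as a set. Of 9 tested, 5 differences lay above 0 and 4 below, with a median of 0.04. Limma called 1 of them higher and 3 lower, where 11.0% of all genes were called. Of 5 macrophage markers tested 2 were called higher, and of 5 endothelial markers 0 were called, with 5 differences above 0. The 8 smooth muscle markers summed to 257 to 331 FPKM, against 430 to 487 FPKM. Of 4 smooth muscle markers tested, limma called 2 lower and 0 higher, with 4 differences below 0. The 11 fibroblast markers summed to 317 to 646 FPKM, against 736 to 886 FPKM, with 2 and 3 of 11 above 1 FPKM on average. Of 3 fibroblast markers tested, limma called 2 lower and 0 higher. The rest of the 11 fibroblast markers were not tested. Pdgfra, among these, was at most 0.263 FPKM in Lgr5-DTR libraries and 0.363 FPKM in wild type ones. At this level it does not speak for the list. The part of these shifts in the Cdkn1c and Mdm2 differences was not tested.

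In luminal cells of Lgr5-DTR mice, Trp53 transcripts were about doubled. Trp53 had 30.5, 34.4 and 31.7 FPKM in Lgr5-DTR luminal libraries, against 20.1, 17.0 and 10.7 FPKM in wild type luminal libraries, so every Lgr5-DTR library was above every wild type one. The means were 32.2 ± 2.00 FPKM and 15.9 ± 4.78 FPKM (SD, n = 3 each), a ratio of 2.02, and the gene rose by 1.01 ± 0.23 on the log2 scale (95% interval 0.51 to 1.52; limma adjusted p = 0.0459; exact permutation p = 0.1, the smallest possible). It was the 1 member called among 9 tested, where 3.14% of all genes tested were called. With values as deposited 276 genes were called higher and 54 lower; refits called 223 and 124 after TMM scaling and 144 and 73 after quantile normalization.

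The Trp53 call also lay near the threshold. It was lost without Lgr5-DTR luminal replicate 1 or 2 (limma adjusted p = 0.112 and 0.119) and without wild type luminal replicate 2 or 3 (limma adjusted p = 0.147 and 0.128). It was also lost with table status as a covariate (limma adjusted p = 0.0513), with no filter on low values (limma adjusted p = 0.158), with a pseudocount of 0.1 (limma adjusted p = 0.0505) and in an untrended fit (limma adjusted p = 0.0653). The median difference of all genes in luminal cells was 0.10 as deposited, 0.01 after TMM scaling and -0.04 after quantile normalization. Under those scalings Trp53 differed by 0.90 (limma adjusted p = 0.0516) and 0.92 (limma adjusted p = 0.0576). With low-data entries in the table, Trp53 had 30.5 FPKM in 1 Lgr5-DTR library and averaged 15.4 FPKM in 2 wild type libraries; without them it averaged 33.0 FPKM in 2 Lgr5-DTR libraries and had 17.0 FPKM in 1 wild type library.

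Both Trp53 rows were higher in Lgr5-DTR luminal libraries with no overlap. NM_011640 averaged 28.1 ± 1.33 FPKM in Lgr5-DTR libraries and 13.5 ± 3.80 FPKM in wild type libraries (SD, n = 3 each), and NM_001127233, which holds the added stretch, averaged 4.10 ± 0.825 FPKM and 2.45 ± 0.988 FPKM. Fitted as rows of their own, neither passed, with differences of 1.04 (limma adjusted p = 0.0577) and 0.59 (limma adjusted p = 0.271).

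The p53 target genes among the members did not move as a block in luminal cells. Cdkn1a averaged 218 ± 3.79 FPKM in Lgr5-DTR libraries and 163 ± 30.9 FPKM in wild type libraries (SD, n = 3 each), and Mdm2 averaged 36.0 ± 3.33 FPKM and 29.7 ± 1.22 FPKM. Ccng1 averaged 20.7 ± 1.96 FPKM in Lgr5-DTR libraries and 28.8 ± 4.96 FPKM in wild type libraries. Groups did not overlap for these 3 and Trp53, with Ccng1 alone below wild type, which makes 4 of 10 members where groups did not overlap for 27.1% of all genes tested. Their differences of 0.44, 0.26 and -0.45 were not called (limma adjusted p = 0.187, 0.339 and 0.184). Cdkn1c and Cdkn2c had differences of 0.89 ± 0.31 and 0.87 ± 0.32 with overlapping libraries, and were not called (limma adjusted p = 0.135 and 0.151). In all, 5 of 9 tested members had an unadjusted p under 0.05 in luminal cells, beside 2386 of 10524 for all genes.

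Markers of other cells moved in the same luminal libraries. The 11 fibroblast markers summed to 108 to 251 FPKM in Lgr5-DTR luminal libraries, against 68.1 to 76.2 FPKM in wild type ones, with 5 of 11 above 1 FPKM on average in each group. Of 5 fibroblast markers tested, limma called 3 higher and 0 lower, where 3.14% of all genes were called. Their median difference was 1.68, with 4 above 0. The rest of the 11 fibroblast markers were not tested. Pdgfra, among these, was at 0.00473 to 0.229 FPKM in Lgr5-DTR libraries and 0.00508 to 0.184 FPKM in wild type libraries. At this level it does not speak for the list. The 10 macrophage markers summed to 30.8 to 142 FPKM, against 20.0 to 27.4 FPKM, and the 7 Schwann cell markers to 67.8 to 172 FPKM, against 33.9 to 63.4 FPKM. The 6 of 7 erythrocyte markers present in the deposited data summed to 83.2 to 288 FPKM, against 121 to 667 FPKM. The 11 luminal markers summed to 18055 to 24833 FPKM, against 26979 to 29798 FPKM, but did not move as a set. Of 10 tested, 5 differences lay above 0 and 5 below, with a median of 0.06. Limma called 0 of them higher and 1 lower, where 3.14% of all genes were called. The part of these marker shifts in the Trp53 difference was not tested.

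In stromal cells, the population whose Lgr5+ cells the study set out to destroy, no member was called by limma. Of 9 tested members, 0 were under an adjusted p of 0.05 and 0 under an unadjusted p of 0.05. Of all genes tested there, 1.17% were called and 1230 of 10689 had an unadjusted p under 0.05. Library groups did not overlap for 11.2% of genes and for 0 of 10 members. Cdkn2d had the largest difference, -0.64 with a 95% interval of -1.43 to 0.14 (limma adjusted p = 0.563). Cdkn1a differed by -0.17 (95% interval -0.77 to 0.43), Trp53 by 0.19 (-0.28 to 0.65) and Mdm2 by 0.38 (-0.20 to 0.95). The interval of Mdm2 includes its basal difference of 0.69. Fibroblast markers summed to 3373 to 4108 FPKM in Lgr5-DTR stromal libraries, against 6286 to 6547 FPKM in wild type ones, and the 8 smooth muscle markers to 397 to 498 FPKM, against 283 to 345 FPKM.

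**Figure D4:**
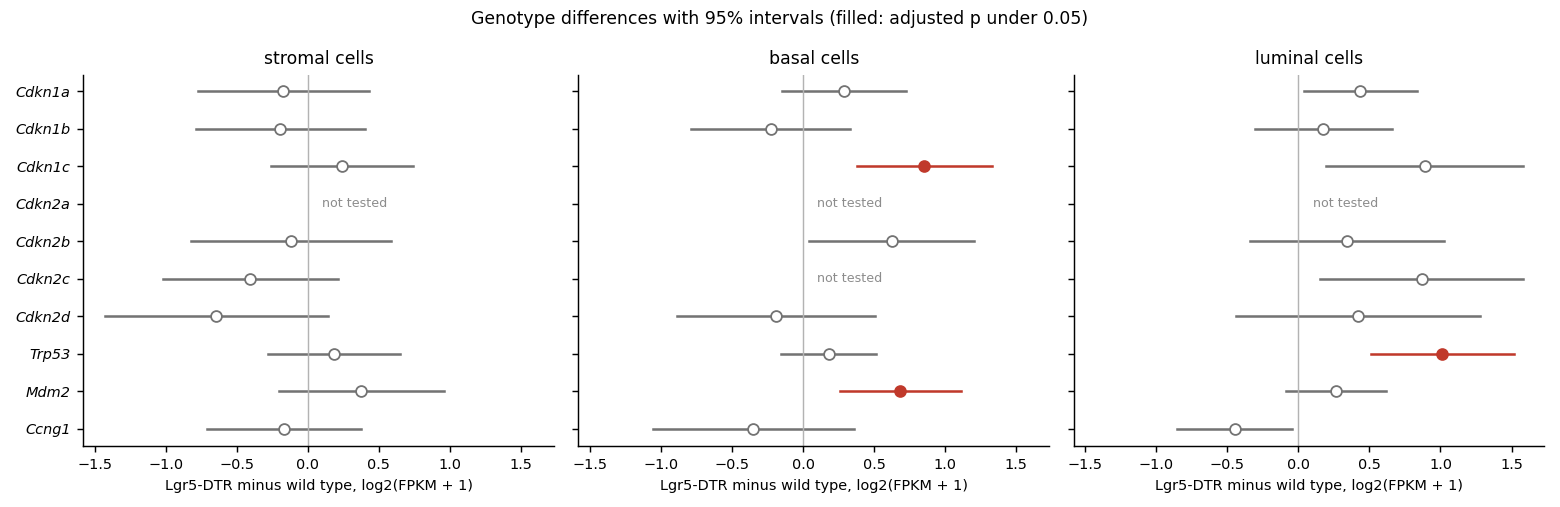
Lgr5-DTR minus wild type differences of log2(FPKM + 1) for each gene in stromal, basal and luminal cells, with 95% intervals from limma; filled red points have an adjusted p under 0.05. The called differences are Cdkn1c (0.85) and Mdm2 (0.69) in basal cells and Trp53 (1.01) in luminal cells.

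The genotype differences of no member were shown to differ between populations. Limma interaction tests called 0 of 8 members between stromal and basal cells, 0 of 9 between stromal and luminal cells and 0 of 8 between basal and luminal cells, where 2.98%, 2.51% and 4.26% of all genes were called. The unadjusted p was under 0.05 for 0, 2 and 1 of them, beside 1301 of 8980, 1246 of 9255 and 2067 of 9098 for all genes. Calls of all genes between stromal and basal cells were 80 higher and 188 lower, against 113 and 145 after TMM scaling and 119 and 147 after quantile normalization; between basal and luminal cells they were 99 and 289, against 199 and 258, and 176 and 228. Trp53 had a smaller genotype difference in basal than in luminal cells, by -0.83 ± 0.27 (limma adjusted p = 0.0973), and in stromal than in luminal cells, by -0.83 ± 0.31 (limma adjusted p = 0.232). Cdkn2c differed by -1.27 ± 0.43 between stromal and luminal cells (limma adjusted p = 0.171). Without wild type luminal replicate 1, the basal minus luminal value of Trp53 was -1.01 and passed (limma adjusted p = 0.0395).

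Further p53 target genes, a list of 28 beside the members, went in both directions in basal cells. Of 24 tested, 3 rose and 4 fell, where 11.0% of all genes were called, and the median difference was -0.00 beside 0.02 for all genes. Eda2r, a receptor of the tumour necrosis factor receptor family, rose to 7.29 to 10.1 FPKM in Lgr5-DTR basal libraries, against 1.61 to 2.74 FPKM in wild type ones (1.64 ± 0.20; limma adjusted p = 0.00241). Pmaip1, which encodes the pro-apoptotic Noxa, rose by 1.42 ± 0.27 (limma adjusted p = 0.0125). Gdf15, a secreted stress factor, fell to 21.7 to 27.5 FPKM in Lgr5-DTR basal libraries, against 50.0 to 95.5 FPKM in wild type ones (-1.42 ± 0.23; limma adjusted p = 0.00731), and Trp53inp1 fell by 1.24 ± 0.27 (limma adjusted p = 0.0229). The other calls, named after their values were seen, were Xpc, a nucleotide excision repair gene, at 0.62, and Btg2 and the death receptor gene Fas at -0.82 and -1.15.

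In luminal cells 2 of 26 tested targets rose and 0 fell, where 3.14% of all genes were called. Differences lay above 0 for 23 of the 26, beside 6277 of 10524 for all genes, with a median of 0.29 beside 0.10; these tallies were not repeated after TMM scaling, under which the median of all genes was 0.01. Pmaip1 was at 9.48 to 17.9 FPKM in Lgr5-DTR luminal libraries, against 1.32 to 2.69 FPKM in wild type ones (2.28 ± 0.29; limma adjusted p = 0.00724). Plk2, a polo-like kinase gene, rose by 1.29 ± 0.27 (limma adjusted p = 0.0384). Phlda3 and Btg2 had differences of 0.84 and 0.42 that were not called (limma adjusted p = 0.130 and 0.206). In stromal cells 0 of 23 targets were called by limma and 3 had an unadjusted p under 0.05, beside 1230 of 10689 for all genes. Plk2 was at 0.69 and the BH3-only gene Bbc3 at -0.84 (limma adjusted p = 0.258 and 0.297).

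**Figure D5:**
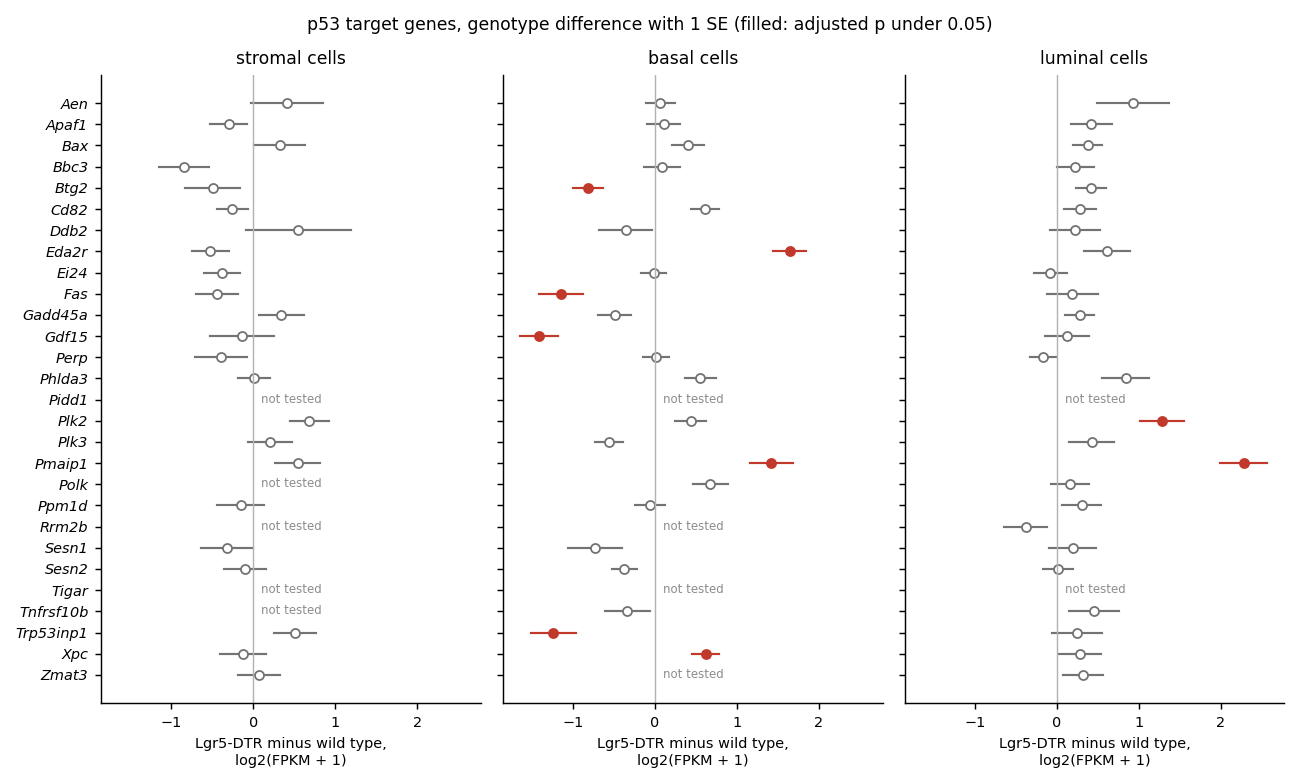
Lgr5-DTR minus wild type differences of log2(FPKM + 1) for 28 p53 target genes in stromal, basal and luminal cells; points are limma estimates, bars are 1 SE and filled red points have an adjusted p under 0.05. Called targets lie on both sides of 0 in basal cells, and Pmaip1 (2.28) and Plk2 (1.29) are called above 0 in luminal cells.

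Among 13 genes of the p53 family and its regulators, Trp63, which encodes the basal lineage factor p63, fell in basal cells to 11.8 to 17.5 FPKM in Lgr5-DTR libraries, against 34.3 to 42.1 FPKM in wild type ones (-1.26 ± 0.18; limma adjusted p = 0.00447). It was the 1 called of 9 tested there, a share like the 11.0% of all genes; limma called 0 of 7 in stromal and 0 of 9 in luminal cells, where 0 had an unadjusted p under 0.05 in either. Of the kinases and cyclins that the inhibitors act on, 1 was higher and 1 lower of 7 tested in basal cells, where 11.0% of all genes were called. Cdk6 rose to 7.14 ± 0.895 FPKM in Lgr5-DTR basal libraries, against 3.63 ± 0.0944 FPKM in wild type ones (SD, n = 3 each; difference 0.81 ± 0.16; limma adjusted p = 0.0164). Ccnd2 (cyclin D2) fell by 0.85 ± 0.23 (limma adjusted p = 0.0444). In stromal cells limma called 0 of 6 genes of this list, with 2 at an unadjusted p under 0.05, beside 1230 of 10689 for all genes. Ccnd1 (cyclin D1) differed by -1.03 ± 0.35 there (limma adjusted p = 0.253). In luminal cells 0 of 7 were called by limma, and 0 had an unadjusted p under 0.05.

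Limma called 0 of 8 tested genes of the RB and E2F family in each population, with 0, 1 and 1 at an unadjusted p under 0.05 in stromal, basal and luminal cells. Among all genes tested, 1230 of 10689, 2703 of 9755 and 2386 of 10524 had such a p in these populations. Of 17 known regulators of the inhibitors, Cks1b, a cofactor in the destruction of p27, fell by 0.77 ± 0.20 in basal cells (limma adjusted p = 0.0447), and Foxo1, a transcription factor that activates Cdkn1b, rose by 0.98 ± 0.20 in luminal cells (limma adjusted p = 0.0358), each 1 of 15 tested, where 11.0% and 3.14% of all genes were called. In stromal cells limma called 0 of 15, with 3 at an unadjusted p under 0.05. Of 20 proliferation markers, the replication helicase genes Mcm6 and Mcm3 rose in luminal cells by 1.37 ± 0.25 and 1.13 ± 0.22 (limma adjusted p = 0.0253 and 0.0278), 2 of 16 tested, where 3.14% of all genes were called. Limma called 0 of 11 in stromal cells, where 1.17% of all genes were called, and 0 of 10 in basal cells, where 11.0% were, with 0 and 4 at an unadjusted p under 0.05.

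Immediate early genes, which many stimuli including tissue handling can induce, were followed as a further list. Zfp36, Ier3 and Atf3 fell in basal cells by 1.02, 0.81 and 1.73 (limma adjusted p = 0.00857, 0.0129 and 0.0191), 3 of 16 tested, beside 11.0% of all genes, and the 16 genes summed to 3754 to 5377 FPKM in Lgr5-DTR basal libraries, against 6106 to 8469 FPKM in wild type ones. In luminal cells Zfp36 rose by 0.91 (limma adjusted p = 0.0210), 1 of 16 tested beside 3.14% of all genes, and the sum was 3064 to 4241 FPKM in Lgr5-DTR libraries, against 2591 to 3185 FPKM in wild type ones. Limma called 0 of 16 in stromal cells, with 4 at an unadjusted p under 0.05, beside 1230 of 10689 for all genes. The part of the immediate early genes in the member differences was not tested.

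The genes whose log2(FPKM + 1) ran most alike to each member over the 19 libraries had a Pearson r of 0.82 to 0.98, a description dominated by the 3 populations that the libraries share. For Ccng1 they were Lamtor2, Ddt and Acbd5 (r = 0.98 each). For Cdkn2c they were Syt11 (0.98), the collagen gene Col1a1 (0.97) and Cpt1c (0.97). For Cdkn1c they were Has1 (0.97), Smad7 (0.96) and Rdh10 (0.96), for Cdkn1b Dact1, Cxx1a and P3h1 (0.97 each) and for Trp53 Tspan9, Ifitm3 and Tnfaip3 (0.96, 0.95 and 0.95). Cdkn1a ran with Taf1d, Epha4 and S100a13 (0.93, 0.93 and 0.92) and Cdkn2d with Ssbp4, Leprot and Cpt1c (0.94, 0.93 and 0.93). Mdm2 had the loosest partners, Zfp428, Arl6ip1 and Bcl2l11 (0.84, 0.83 and 0.82).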

How the data were processed

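RNA of flow-sorted prostate cells had been amplified with a low-input kit, made into libraries by tagmentation and sequenced, per the labels. The authors deposited 1 table per library with FPKM and read coverage per RefSeq transcript; TopHat2, Cufflinks and mm10 are named per the submitters' processing notes, and versions are not given in the sources used here. FPKM were summed per gene symbol. No counts were among the values, so no count model was used and depth was read from the deposited coverage. Values were compared on the log2(FPKM + 1) scale with limma (version 3.58.1, run in R 4.3.3, its variance prior following mean level and guarded against outlying genes). This scale understates changes of low genes. A gene was tested when at least 3 fitted libraries reached 1 FPKM and no fitted library gave it a failed or capped status, and Benjamini-Hochberg adjustment ran over all genes tested. Fits covered 1 population at a time (genotype), the 9 wild type libraries (populations) or 2 populations (interaction). Single values were compared by exact two-sided permutation over libraries (35 splits for 4 against 3, 20 for 3 against 3). Scripts were tested on simulated data and used statmod 1.5.0. Alternatives covered the pseudocount (0.1), no filter, TMM and quantile scaling, replicate blocks, table status, the spread model and each library left out; TMM was computed from its published formula. Promoter sequences came from RefSeq (GRCm38.p6) for 9 of 10 members, other sequences from GENCODE on GRCm38, the assembly of mm10. Replicate numbers come from the sample descriptions; same-numbered libraries did not deviate together in every pair, so they were not treated as pairs. The titles carry other numbers, which some libraries of different populations share; these were tried as a random block. Named genes were all members, up to 4 genes per list and comparison with the smallest p, and the 3 most alike genes of each member that reached a group mean of 5 FPKM. The members, the 7 pathway lists and the 9 marker lists were chosen with earlier results of these data known. No member value stood apart by a Dixon test in the group of 4 libraries, and no 2 tables held identical values.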

Additional observations from a re-analysis of the deposited data

How the results depend on the processing

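Of 1427 member values over the alternatives, 1337 kept their direction and their side of the threshold, 31 lost a call, 19 gained one and 40 changed sign; the causes were not tested. The genes called between genotypes in stromal cells numbered 125, against 36 with no filter on low values, 79 after TMM scaling, 77 after quantile normalization, 1041 with the replicate number as a block, 49 with table status as a covariate and 366 in a fit of all 6 groups. In basal cells 492 of the genes were called with no filter and 213 with the replicate block, and in luminal cells 4 with no filter, 217 after quantile normalization, 755 with the replicate block, 750 with table status and 871 in the fit of 6 groups. Interaction calls numbered 457 between stromal and basal cells and 639 between basal and luminal cells with the title number as a random block, 647 in the second with table status, and 118 and 81 between stromal and luminal cells after TMM scaling and quantile normalization. The replicate numbers were not taken as pairs, since same-number r was -0.53 to -0.23 in basal cells, -0.046 to 0.49 in stromal cells and -0.12 to 0.38 in luminal cells, with 0, 2 and 2 of 3 above 0.1; under the block 1 member, Cdkn2d, was called in stromal cells (-0.86; limma adjusted p = 0.0210) and 0 in basal cells. Basal member calls were 1 with a pseudocount of 0.1, TMM, quantile, an untrended fit, the fit of 6 groups or the highest transcript alone, and 0 with no filter or table status. Luminal member calls were 0 with a pseudocount of 0.1, no filter, TMM, quantile, table status or an untrended fit, and 2 in the fit of 6 groups, which added Cdkn1c (limma adjusted p = 0.0436). Signs turned, for differences that were not called in the fit as reported, after quantile normalization for Cdkn1a (0.0095) and Cdkn2b (0.0196) in stromal cells and Cdkn1b in luminal cells (-0.066), between wild type basal and luminal cells (0.066) and in the stromal minus luminal interaction (0.0086). They also turned for stromal Cdkn2b under the block (0.0501), for the basal minus luminal interaction of Cdkn1c after TMM (0.064) and quantile normalization (0.20), and with the highest transcript alone for Mdm2 between wild type basal and luminal cells (-0.54) and in the stromal minus basal interaction (0.10) and for Trp53 in that interaction (-0.056). With each library left out in turn, genes called ranged between 31 (without wild type stromal replicate 3) and 232 (without Lgr5-DTR stromal replicate 4) in stromal cells, between 290 (without Lgr5-DTR basal replicate 2) and 2231 (without Lgr5-DTR basal replicate 1) in basal cells, and between 0 (without wild type luminal replicate 3) and 876 (without Lgr5-DTR luminal replicate 3) in luminal cells. The interaction counts ranged over 113 to 369, 82 to 268 and 137 to 802 genes, and members called over 0 to 2 in basal cells, 0 to 1 in luminal cells and 0 to 1 in the basal minus luminal interaction. Differences that crossed 0 were stromal Cdkn1a (-0.30 to 0.091) and Cdkn2b (-0.42 to 0.10), basal Cdkn2d (-0.47 to 0.10) and wild type basal minus luminal Mdm2 (-0.10 to 0.21). Among interactions they were Cdkn1b (-0.15 to 0.24), Trp53 (-0.10 to 0.14) and Ccng1 (-0.16 to 0.51) for stromal minus basal, Mdm2 (-0.065 to 0.31) for stromal minus luminal, and Ccng1 (-0.23 to 0.44), Cdkn1a (-0.30 to 0.041) and Cdkn1c (-0.33 to 0.19) for basal minus luminal cells. With 3 or 4 libraries a group and genotype, toxin and origin changing together, no cause can be read from the differences. Read counts were not used, so counting error at low FPKM is unknown, and Cdkn2a levels under 1 FPKM were left untested.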
